A study of Mus musculus with 6 samples.

Results

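The genes described here encode complement and blood clotting proteins, other than the serpin inhibitors, and were followed through TNFα treatment of mouse hepatocytes. They were taken by name from the probe table of the array: 33 genes were listed, 18 of the complement system and 15 of clotting. No probe was named for C3 and Cfd, 31 genes had 57 probes between them, and 30 genes, 15 of each system, had a probe bright enough to test, of 13438 genes tested in all. C1s, an older symbol, was matched to C1s1 through the RefSeq synonyms. Both probes of C1ra, a protease of the first complement component, lay between 111.0 and 142.7 on all arrays, at or below the array medians of 143.2, and C1ra was not tested.

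The 6 arrays, single-colour Illumina BeadChips, held RNA of primary liver cells from male C57Bl/6J mice. All cells sat on collagen in Williams' E medium with 5% fetal calf serum, 50 nM dexamethasone, a synthetic glucocorticoid, and 1 nM insulin, also those without TNFα. Of 3 groups of 2 arrays, 1 was unstimulated, 1 received 2 ng/mL recombinant murine TNFα for 2 hours and 1 the same dose for 2 days. The age of the mice, the sharing of animals or cultures between arrays and the age of the unstimulated cultures at harvest are not given in the labels, so p-values cover only the spread between these arrays, and time in culture cannot be told apart from the 2 day exposure.

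Hepatocytes make most of the complement and clotting proteins of plasma. In complement, the classical and lectin pathways join at C4 and C2 and the alternative pathway runs through factors B and D. All lead to cleavage of C3 and C5 and to the pore built from C6 to C9. In clotting, the contact system and the tissue factor pathway meet at factor X, which with factor V activates prothrombin, and thrombin then turns fibrinogen into fibrin. Inflammation is known to raise the hepatic output of several of these proteins, fibrinogen and C3 among them, largely through interleukin-6 and interleukin-1, so they are counted among acute phase proteins.

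Arrays of 1 group correlated at 0.995 to 0.996 over all genes tested and arrays of different groups at 0.982 to 0.991. Among the hepatocyte markers, Ttr, Apoa1, Apob, Serpina1a, Cps1 and Asgr1 were bright, whereas the probes of Alb (means of 145.1 to 159.8) and Tdo2 (139.6 to 149.4) lay near the array medians and Tat had no passing probe. In the unstimulated group, replicate 1 was the brighter array for 14 of 15 complement and 13 of 15 clotting genes, against 50.2% of all genes, by up to 1.5-fold (C6). Where leaving out this array ended a call or moved a called value by over 1.5 times, the value without it is given beside the result. Only levels of the same probe are compared, and intensities are linear and still hold background, so that changes of dim probes are understated.

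The promoters shown here belong to 2 pairs of neighbouring genes. Fga and Fgg, next to each other on chromosome 3, were both called lower at 2 days. Of F7 and F10, next to each other on chromosome 8, F10 was called lower and F7, on a dim probe, was not called. The difference between F7 and F10 was not tested. Each promoter is the 250 bases before the RefSeq start in GRCm38.p6, 5′ to 3′ on the gene's strand, which is the plus strand for all 4. Capitals mark matches on either strand to TTGCNNAA (a C/EBP-like motif), TTCNNNGAA (STAT-like), to the TATA box letters TATAAA, to an HNF1-like motif spelled GTTAAT or to an HNF4-like motif spelled CAAAGT. Here they stand in Fga alone.
F10, chr8:13037058-13037307: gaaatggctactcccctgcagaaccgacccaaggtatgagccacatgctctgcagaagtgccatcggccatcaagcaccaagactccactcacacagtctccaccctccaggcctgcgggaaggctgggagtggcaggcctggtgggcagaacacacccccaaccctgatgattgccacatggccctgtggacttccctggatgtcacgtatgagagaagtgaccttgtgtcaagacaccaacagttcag
F7, chr8:13025784-13026033: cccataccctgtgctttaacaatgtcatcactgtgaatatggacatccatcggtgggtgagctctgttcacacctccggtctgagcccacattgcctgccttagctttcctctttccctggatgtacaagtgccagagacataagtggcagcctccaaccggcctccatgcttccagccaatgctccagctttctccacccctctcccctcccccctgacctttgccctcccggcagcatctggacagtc
Fga, chr3:83025903-83026152: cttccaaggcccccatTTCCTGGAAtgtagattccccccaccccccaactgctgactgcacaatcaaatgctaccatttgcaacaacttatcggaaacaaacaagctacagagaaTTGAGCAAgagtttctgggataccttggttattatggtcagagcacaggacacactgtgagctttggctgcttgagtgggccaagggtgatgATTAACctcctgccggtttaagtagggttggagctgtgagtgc
Fgg, chr3:83007474-83007723: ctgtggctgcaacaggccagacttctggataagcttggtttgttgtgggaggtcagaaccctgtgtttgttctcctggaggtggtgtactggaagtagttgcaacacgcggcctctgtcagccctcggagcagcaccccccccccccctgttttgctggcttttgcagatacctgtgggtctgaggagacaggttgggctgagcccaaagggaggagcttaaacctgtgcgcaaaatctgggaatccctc

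RefSeq's table held a promoter for 25 of the 33 genes. Of these, 8 held the C/EBP-like motif, against 10.8% of the 27025 genes in the table, and 5 the STAT-like one, against 8.13%; Fga, its neighbour Fgb and F9 held both. The HNF1-like motif stood in 7 (Fga, Fgb, F13b, Hc, C8a, C8b and C1ra), against 7.49% of all genes. TATAAA stood in 2 (14.3% of all genes) and CAAAGT in 3 (14.1%). A loose NF-κB-like pattern, GGG and CC with any 5 bases between, stood in 7, among them F10 and Fgg, but also in 48.7% of all promoters. Among the 11 genes with a promoter that fell at 2 days (below), 2 held the C/EBP-like motif, 3 the STAT-like one and 3 the HNF1-like one, and among the other 11 tested 5, 2 and 3 did. A match of letters is not a binding site.

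After 2 hours, 2 of the 30 genes were called, both of complement: Cfb rose and Masp1 fell, and no clotting gene passed the test. Over all genes, 1.76% were called higher and 1.06% lower at that time (limma, Benjamini-Hochberg adjusted p under 0.05). Neither complement call held under every alternative. That of Cfb was lost after background correction. For Masp1, the RefSeq-annotated probe gave -0.21 and the mean of its probes -0.37, neither of them called. The median log2 change was 0.08 for complement and 0.00 for clotting genes, against -0.01 for all genes, with ranges of -0.78 to 0.43 and -0.31 to 0.19. At an unadjusted p under 0.05, 0 clotting genes were higher and 1, Fga, was lower. For complement 2 were higher and 3 lower, and of all 13438 genes 695 were higher and 888 lower.

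After 2 days, 8 of 15 clotting genes had fallen and 0 had risen, while complement split, with 5 of 15 lower and 2 higher. Among all genes, 5.92% were called lower and 6.74% higher. The median log2 change was -0.36 for clotting (range -1.36 to 0.28), -0.04 for complement (range -0.81 to 0.69) and 0.01 for all genes. The complement median is the value of Masp1 on its brightest probe, while the RefSeq-annotated Masp1 probe gave -1.37 (below). Taken over all passing probes, the medians lay closer together, at -0.25 for clotting and -0.19 for complement. A change of -0.35 was the 5th percentile of all genes. The difference between both systems was not tested, since genes are not replicates. After normexp background correction 4 clotting and 1 complement gene were lower and 1 complement gene was higher, among 349 genes called higher and 306 lower in all. Without unstimulated replicate 1, F2 (-0.38), Kng1 (-0.36), C8g (-0.15) and Masp2 (-0.29) were not called.

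Some hepatocyte markers were also lower at 2 days. The 9 of 10 with a passing probe summed to 98657 to 102570 without TNFα, 101160 to 101270 at 2 hours and 60261 to 62916 at 2 days. At 2 days 3 of the 9 were called lower and 0 higher: Cps1, an enzyme of the urea cycle, went from a mean of 13588 to 1573, Asgr1, a glycoprotein receptor, from 4368 to 1430, and Apoa1, an apolipoprotein, from 41566 to 23578. These 3 and Ttr make up most of the sum. The 6 markers Ttr (-0.28), Apob (-0.01), Serpina1a (-0.22), Asgr2 (-0.23), Alb (-0.13) and Tdo2 (-0.10), were not called. Fewer cells of a type and less RNA per cell cannot be told apart in such bulk samples, and the part of either in the lower values was not tested.

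**Figure D1:**
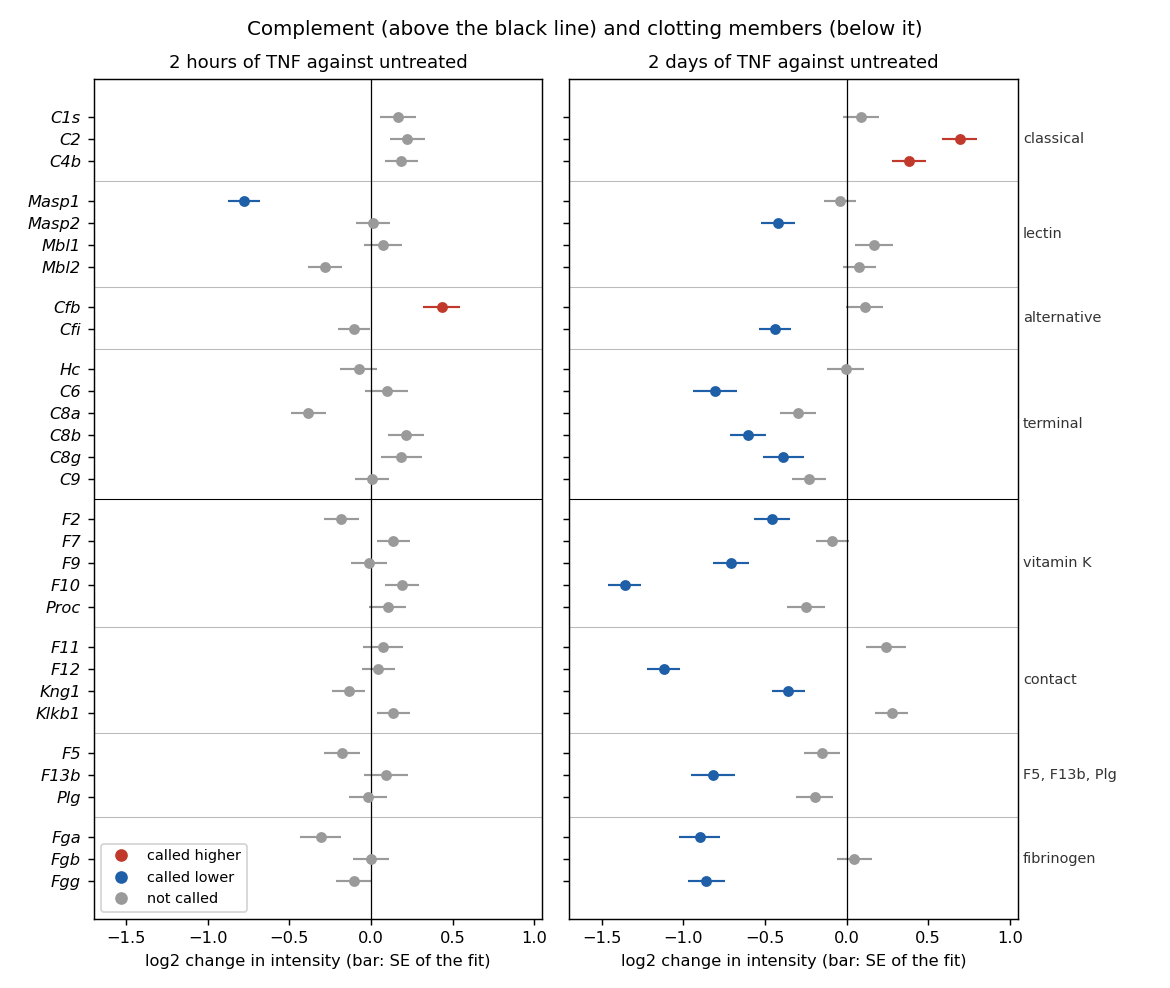
Log2 change in intensity of the 30 tested genes after 2 hours (left) and 2 days (right) of TNFα against unstimulated cells, with the SE of the limma fit as bars (n = 2 arrays a group), complement above the black line and clotting below, and the role of each row of genes named at the right. Red points were called higher, blue lower and grey not called: at 2 hours Cfb and Masp1 are coloured, at 2 days 15 genes, of which C2 and C4b are red.

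**Figure D2:**
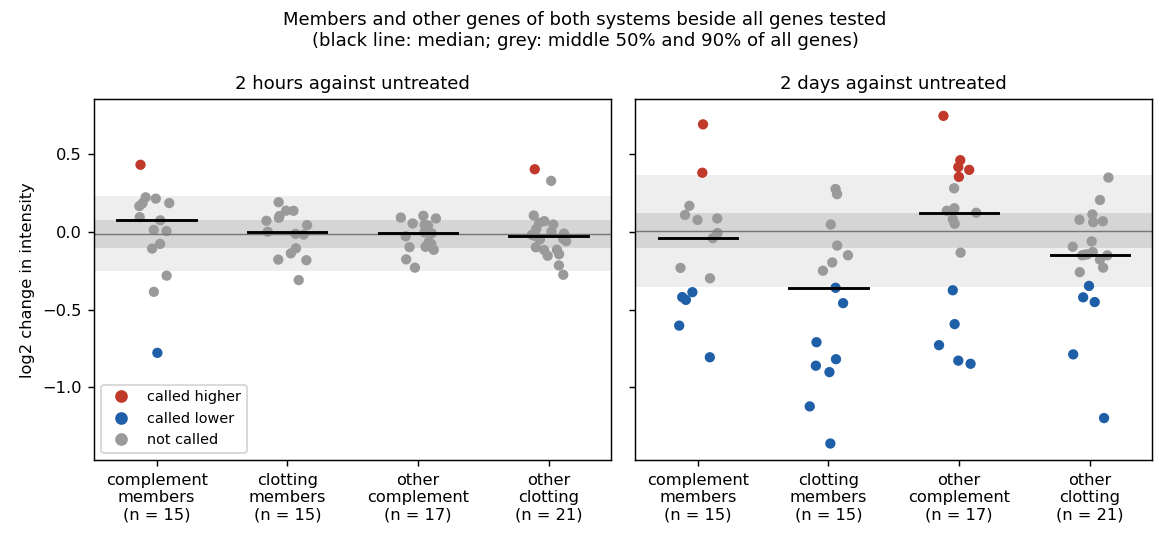
Log2 change of each complement and clotting gene, and of the other genes of both systems, after 2 hours and 2 days; black lines are medians, the dark and light grey bands run from the 25th to the 75th and from the 5th to the 95th percentile of all 13438 genes, and colours are as before. At 2 days the median of the clotting genes lies at -0.36 and that of the complement genes at -0.04.

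Of the classical pathway, C2, the protease that joins C4 fragments to form the C3-cleaving enzyme, rose at 2 days. It read 2303 and 2119 on the unstimulated arrays, 2645 and 2515 at 2 hours and 3871 and 3293 at 2 days. Both 2 day arrays were the highest, and the 2 hour arrays lay between the groups. The mean went from 2211 ± 130 to 3582 ± 409 (SD, n = 2 each), 1.62 times the level without TNFα (log2 0.69, SE 0.11, adjusted p = 2.95e-05 by limma). This call held under every alternative. C2 was also higher at 2 days than at 2 hours (log2 0.47, adjusted p = 0.00232 by limma), though without replicate 1 of the 2 day group that difference was 0.35 and not called.

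C4b, which encodes complement C4, read 2503 and 2436 without TNFα, 2758 and 2862 at 2 hours and 3455 and 2995 at 2 days. The groups did not overlap, and the change at 2 days was 0.38 (SE 0.10, adjusted p = 0.0127 by limma). Without replicate 1 of the 2 day group it was 0.28, and without unstimulated replicate 2 it was 0.36, neither of them called. The other C4b probes were dimmer, from 229.6 to 274.1 on all arrays, and gave 0.03 and 0.16 with no call. C4a, a near copy of C4b, had a probe at 2635 and 2552 without TNFα and 3383 and 2870 at 2 days, and cross-hybridisation between both genes was not tested. C1s, the protease that cleaves C4 and C2, gave 0.09 (SE 0.11) at 2 days on 1 probe and -0.15 on the other, and was not called.

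Macrophages also make early complement components, so their markers are given beside these rises. The 7 of 10 macrophage markers with a passing probe summed to 1191 to 1233 without TNFα, 1172 to 1224 at 2 hours and 1410 to 1575 at 2 days. Adgre1 (means of 142.9 to 155.8) and Csf1r (154.9 to 168.1) stayed near the array median throughout, and the 3 called markers were C1qa, C1qb and C1qc. Marco (means of 158.9 without TNFα and 195 at 2 days, log2 0.30) and Vsig4 (0.08) were not called at 2 days. Of the 7 estimates at 2 days, 6 were above 0, with a median of 0.30, against 0.01 for all genes. The part of such cells in the values of C2 and C4b was not tested.

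Of the lectin pathway, the mannose-binding lectins Mbl1 and Mbl2 recognise microbial sugars, and the proteases Masp1 and Masp2 act with them. Mbl2 read 5016 and 5106 without TNFα, 4078 and 4256 at 2 hours and 4958 and 5757 at 2 days. Both 2 hour arrays were below all others, but the change at 2 hours (-0.28, SE 0.10) was not called (adjusted p = 0.204 by limma). From 2 hours to 2 days Mbl2 rose by 0.36 on the log2 scale (adjusted p = 0.017 by limma), a call lost without either 2 hour array (0.33 without replicate 1, 0.39 without replicate 2) and without replicate 2 of the 2 day group (0.25). Mbl1, on a dim probe between 243.0 and 337.4, was not called in any comparison.

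The probes of Masp1 disagreed. On the brightest probe, ILMN_1250116, which is annotated to a cDNA clone, Masp1 read 1218 and 1164 without TNFα, 702 and 688 at 2 hours and 1108 and 1212 at 2 days. This probe fell at 2 hours (log2 -0.78, SE 0.10, adjusted p = 8.23e-06 by limma) and had the level of unstimulated cells at 2 days within the spread of the arrays (-0.04, SE 0.10). On ILMN_2660969, annotated to the RefSeq transcript, the readings were 1211 and 994 without TNFα, 945 and 950 at 2 hours and 376 and 482 at 2 days. Here the 2 hour change (-0.21) was not called and the 2 day one was (-1.37, adjusted p = 9.35e-09 over all probes by limma). The third, dim probe, also from a clone, read between 144.7 and 193.8 and was not called. The gene makes several transcripts, and which of them each probe detects was not tested; with the mean of the probes Masp1 was called lower at 2 days (-0.46) and not at 2 hours.

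Masp2, whose protease cleaves C4 and C2, fell at 2 days on 3 of its 4 probes. The probe with the highest mean read 1639 and 1377 without TNFα, 1522 and 1511 at 2 hours and 1118 and 1130 at 2 days. Only the 2 day arrays stood apart, with a change of -0.42 (SE 0.10, adjusted p = 0.00676 by limma), or -0.29 and not called without unstimulated replicate 1. Of the other probes, -0.74 and -0.48 were called and -0.19, on a dim one, was not.

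**Figure D3:**
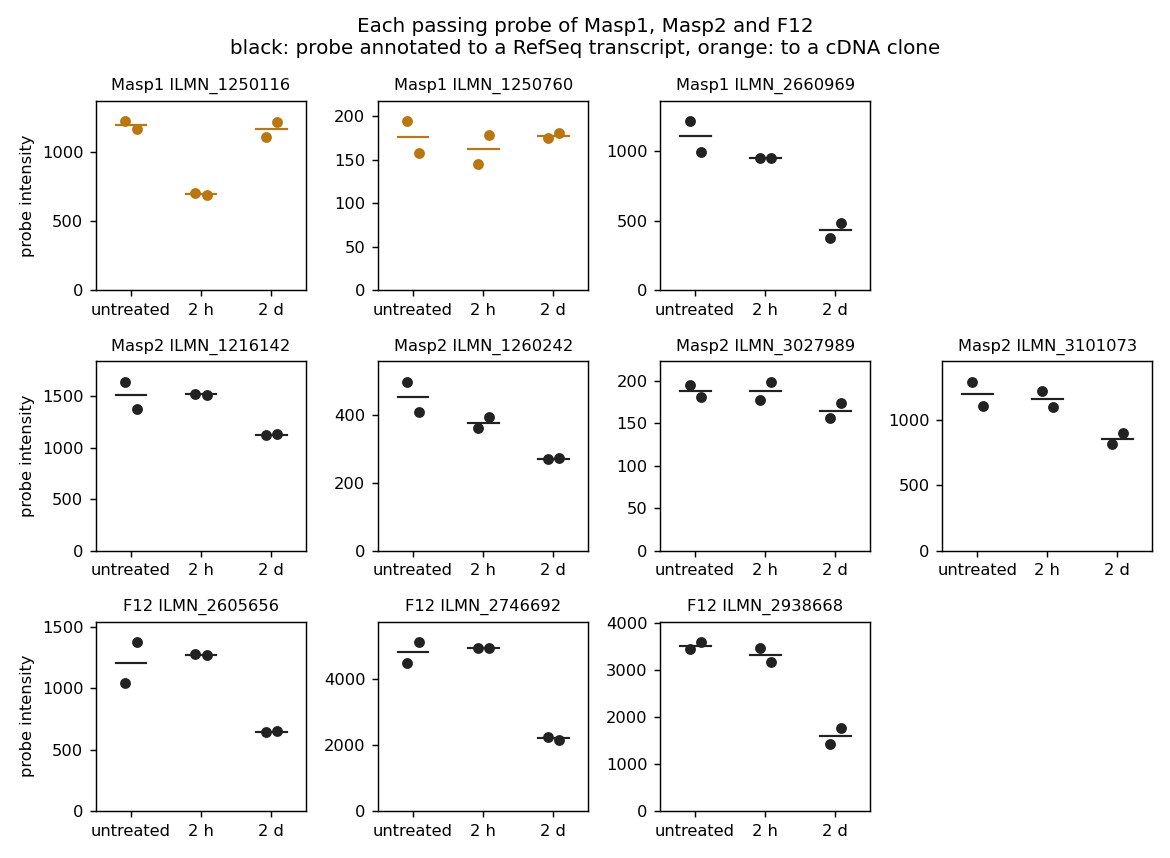
Intensity of each passing probe of Masp1, Masp2 and F12 on each array (points, 2 a group) with group means (lines); black probes are annotated to a RefSeq transcript and orange ones to a cDNA clone. The leftmost Masp1 probe is lowest at 2 hours (702 and 688) and the black one at 2 days (376 and 482), while the 3 probes of F12 are all lowest at 2 days.

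In the alternative pathway, Cfb encodes factor B, the protease subunit of that pathway's C3-cleaving enzyme. It read 783 and 609 without TNFα, 988 and 880 at 2 hours and 790 and 703 at 2 days. The 2 hour arrays were above all others, and the change was 0.43 (SE 0.12, adjusted p = 0.0385 by limma). It was not called without unstimulated replicate 2 (0.25) or either 2 hour array (0.35 without replicate 1, 0.52 without replicate 2). At 2 days the change was 0.11 and not called. Cfb and C2, neighbours on chromosome 17, were thus called at different times; the difference between both genes was not tested. Cfi encodes factor I, which inactivates C3b and C4b. It fell at 2 days, from 5932 and 5698 to 4261 and 4331 (log2 -0.44, SE 0.10, adjusted p = 0.00266 by limma), with 5427 and 5373 at 2 hours. Background correction ended this call (adjusted p = 0.108 by limma).

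The terminal pathway builds the membrane pore. At 2 days 3 of its 6 genes were called lower and 0 higher, where 5.92% and 6.74% of all genes were. All 6 estimates were below 0, with a median of -0.34, against 0.01 for all genes. C6, which binds the C5b fragment, read 512 and 343 without TNFα, 416 and 482 at 2 hours and 233 and 247 at 2 days. The 2 day arrays were below the other 4, which overlapped, and the change was -0.81 (SE 0.13, adjusted p = 8.33e-05 by limma). Without unstimulated replicate 1, the higher array, it was -0.52 and still called, and after background correction it was -1.13. The dimmer C6 probe gave -0.22 and was not called, though it was lower at 2 days than at 2 hours (-0.46). C8b, the beta chain of C8, read 1498 and 1198, then 1626 and 1488, then 917 and 850, a fall of 0.60 on the log2 scale (adjusted p = 0.000327 by limma). C8g, the gamma chain, fell by 0.39 (adjusted p = 0.0408 by limma), but by 0.15 without unstimulated replicate 1 and by 0.29 without replicate 1 of the 2 day group, both not called, nor was it called without either 2 hour array. Without unstimulated replicate 2 it fell by 0.62.

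The alpha chain gene C8a, next to C8b on chromosome 4, had a dim probe at 234 and 207 without TNFα, 155 and 184 at 2 hours and 183 and 176 at 2 days. It passed the test at neither time (-0.38 at 2 hours, adjusted p = 0.0527; -0.30 at 2 days, adjusted p = 0.0727, both by limma). C9, which polymerises into the pore, gave -0.23 (SE 0.10) and -0.24 at 2 days on its passing probes, neither called. The dimmer C9 probe was lower at 2 days than at 2 hours (-0.39, adjusted p = 0.00678 over all probes by limma). Hc, the mouse C5 gene, gave -0.01 (SE 0.11).

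Among the vitamin K-dependent clotting factors, F10 fell most. Factor X is the protease that activates prothrombin. It read 4845 and 4357 without TNFα, 5292 and 5206 at 2 hours and 1683 and 1901 at 2 days. Both 2 day arrays were far below the other 4. The mean went from 4601 ± 345 to 1792 ± 154 (SD, n = 2 each), to 0.389 of its level (log2 -1.36, SE 0.10, adjusted p = 3.42e-10 by limma). F7, its neighbour, which encodes the partner of tissue factor, read 300 and 294, then 309 and 346, then 272 and 288 on a dim probe, with a change of -0.09 (SE 0.10) at 2 days. Background correction gave -0.13 for F7 and -1.41 for F10.

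F9 encodes the protease that activates factor X with factor VIII. It read 3116 and 2457 without TNFα, 2670 and 2821 at 2 hours and 1603 and 1787 at 2 days. The 2 day arrays stood below the other 4, with a change of -0.71 (SE 0.11, adjusted p = 5.06e-05 by limma). F2, prothrombin, read 6780 and 6124, then 5741 and 5625, then 5218 and 4219. It was lower at 2 days by 0.46 (adjusted p = 0.00469 by limma), by 0.38 without unstimulated replicate 1 and by 0.30 without replicate 2 of the 2 day group, both not called. Proc, protein C, the anticoagulant protease of this family, was not called at 2 days against unstimulated cells (-0.25, SE 0.11) and was lower at 2 days than at 2 hours on 1 of its 2 probes (-0.35, adjusted p = 0.0352 by limma). That call was lost without either 2 hour array (-0.37 without replicate 1, -0.33 without replicate 2) and without replicate 2 of the 2 day group (-0.21).

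**Figure D4:**
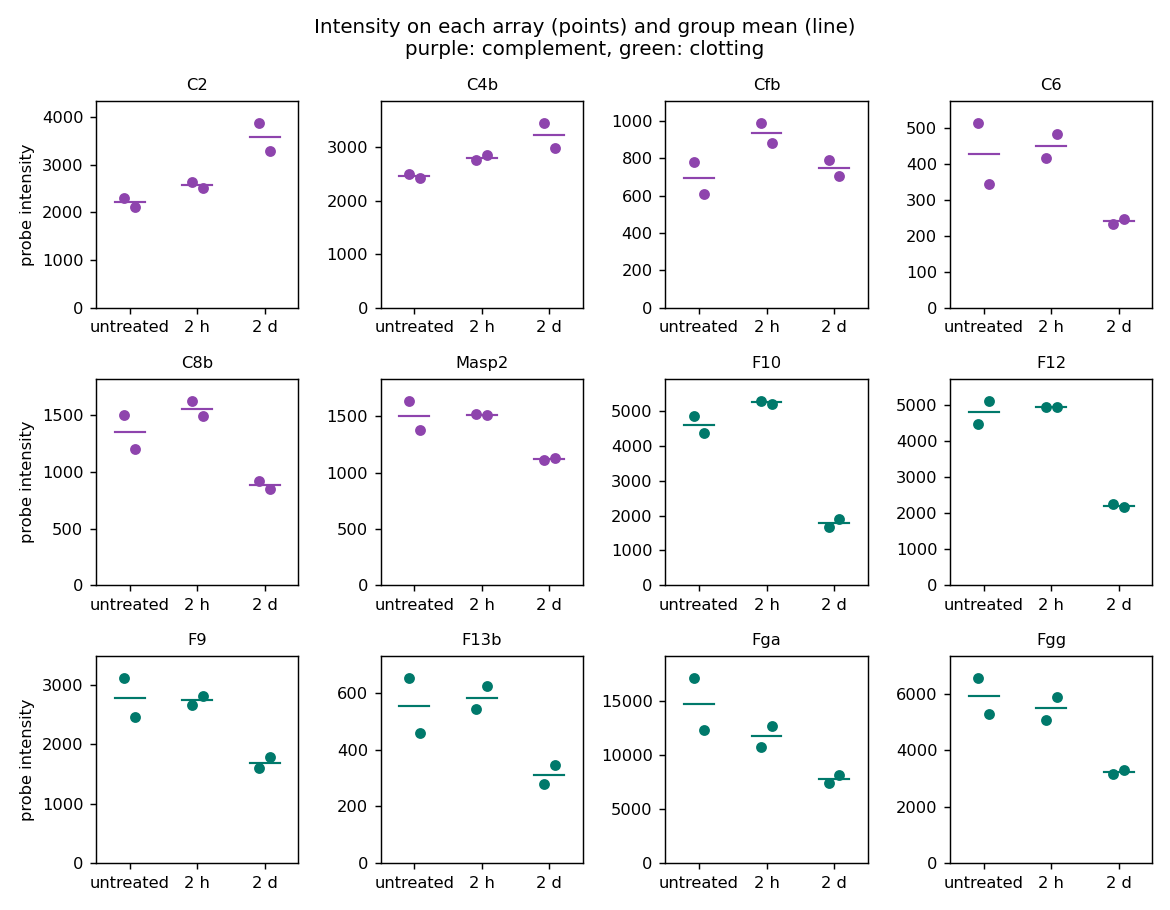
Probe intensity, on a linear axis from 0, of 6 complement (purple) and 6 clotting genes (green) on each array (points, 2 a group), with group means as lines. C2 and C4b are highest at 2 days and Cfb at 2 hours, and both 2 day arrays are the lowest for the other 9 genes.

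In the contact system, which starts clotting on foreign surfaces, F12 fell on all 3 probes. The brightest read 4481 and 5111 without TNFα, 4936 on both 2 hour arrays and 2240 and 2158 at 2 days, a change of -1.12 (SE 0.10, adjusted p = 7.83e-09 by limma), and the others gave -0.89 and -1.15. Kng1, the kininogen that carries prekallikrein and factor XI, was measured by a bright probe, at 23680 and 23808 without TNFα and 18133 and 18906 at 2 days. Its change of -0.36 (adjusted p = 0.0178 by limma) was not called without any 1 of the 4 arrays compared (-0.33 to -0.39), but its second probe gave -0.61 and was called. F11 and Klkb1, neighbours on chromosome 8 that encode factor XI and prekallikrein, did not pass the test. F11 gave 0.24 (SE 0.12) at 2 days, or 0.43 and called without replicate 1 of the 2 day group, and its other probes gave 0.08 and -0.05. Klkb1, on a probe between 149.5 and 198.1, gave 0.28 (SE 0.10), and its second probe gave 0.08.

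F13b, the carrier subunit of factor XIII, which crosslinks fibrin, read 652 and 459 without TNFα, 542 and 626 at 2 hours and 279 and 345 at 2 days. The 2 day arrays were the lowest, with a change of -0.82 (SE 0.13, adjusted p = 6.98e-05 by limma) and -0.80, also called, on the second probe. F5, the cofactor of factor X, gave -0.15 (SE 0.11) on a probe between 213.2 and 275.1. Plg, the precursor of plasmin, which dissolves fibrin, gave -0.20 (SE 0.12), and neither gene was called. The other passing Plg probes, both dimmer, gave 0.01 and -0.23, not called. The latter was lower at 2 days than at 2 hours (-0.42, adjusted p = 0.00946 over all probes by limma).

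Fibrinogen is assembled from 3 chains, and the 2 chains with a bright probe fell together at 2 days. Fga read 17131 and 12313 without TNFα, 10779 and 12745 at 2 hours and 7384 and 8187 at 2 days, a change of -0.90 (SE 0.13, adjusted p = 9.14e-06 by limma). Without TNFα the arrays lay far apart and overlapped with those of 2 hours; the second Fga probe gave -0.88, also called. At 2 hours the estimate was -0.31 and not called, or -0.55 and called without unstimulated replicate 2. Fgg read 6547 and 5282, then 5070 and 5897, then 3172 and 3308, with a change of -0.86 (SE 0.11, adjusted p = 3.35e-06 by limma). Fgb, the third chain, had 1 probe, which read 118.6 to 147.1, around the array median, in every group, so its level was not measured above background here.

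Counted by probe, 13 of 27 passing clotting probes and 8 of 25 complement probes were lower at 2 days, where 5% of the 21425 probes tested were, and 0 and 2 were higher, where 5.47% were. At 2 hours 0 clotting probes were called, and 1 complement probe was higher and 1 lower (1.47% and 0.779% of all probes). Probes of 1 gene share its RNA and are not separate evidence.

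Set directly against each other, the 2 day arrays were lower than the 2 hour arrays for 7 of 15 clotting and 5 of 15 complement genes and higher for 0 and 3, where 6.67% of all genes were lower and 8.63% higher. This is the test of whether levels differed between both times, since the unstimulated arrays are common to both comparisons. Here too, time in culture cannot be told apart from the longer exposure. The clotting genes were F9, F10, F12, F13b, Proc, Fga and Fgg, the complement genes with a fall were C6, C8b, C8g, Cfi and Masp2, and those with a rise were C2, Masp1 (on its brightest probe) and Mbl2. Beside C2, Mbl2 and Proc (above), calls were lost for C8g (-0.49) and Fga (-0.47) without replicate 2 of the 2 hour group, and for Cfi without any 1 of the 4 arrays compared (-0.32 to -0.34). F2 and Kng1, which were called at 2 days against unstimulated cells, did not pass this test (-0.28 and -0.22). F2 did without replicate 1 of the 2 day group (-0.43), and the second Kng1 probe gave -0.50 and was called.

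Among the other complement genes, 17 of 28 were tested, with a median of 0.12 at 2 days. Of these, 5 were higher and 5 lower then, where 6.74% and 5.92% of all genes were. The highest was C1qb (0.75), a chain of C1q, the recognition molecule of the classical pathway, and C1qc (0.42) and C1qa (0.36) were also higher, as were Cfp, properdin (0.46), and the pore inhibitor Cd59a (0.40). The C1q genes, also counted as macrophage markers above, had dim probes between 146.1 and 333.6, and Cfp read between 232.5 and 345.3. The part of macrophages in these values was not tested. Lower were C4bp, the inhibitor that binds C4b protein (-0.85), Cpn2 (-0.83) and Cpn1 (-0.37), the subunits of carboxypeptidase N, Cfhr2 (-0.73) and Vtn, vitronectin (-0.59). The calls of C1qa (0.31 without unstimulated replicate 2, 0.28 without replicate 2 of the 2 day group), C1qc (0.32 without unstimulated replicate 1, 0.30 without replicate 2 of the 2 day group), Cd59a (0.37 without the latter) and Cpn1 (-0.34 without unstimulated replicate 2, -0.38 and -0.37 without either 2 day array) were lost. Background correction ended the calls of C1qc, Cd59a, Cfhr2 (-1.19, adjusted p = 0.0545 by limma), Vtn (-0.60, adjusted p = 0.0699) and Cpn1. Vsig4, a complement receptor of macrophages, was higher at 2 days than at 2 hours (0.31) and not called against unstimulated cells. At 2 hours 0 of the 17 were called by limma. At an unadjusted p under 0.05, 0 were higher and 1 lower, where 695 and 888 of all 13438 genes were.

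Of the other clotting genes, 21 of 28 were tested, with a median of -0.15 at 2 days. At that time 5 were lower and 0 higher, where 5.92% and 6.74% of all genes were. Proz, protein Z, a cofactor in the inhibition of factor X, fell from a mean of 449.2 ± 111.8 to 193.0 ± 12.4 (SD, n = 2 each), to 0.436 of its level (adjusted p = 9.04e-08 by limma). The fibrinogen-like Fgl1 fell by 0.79 on the log2 scale. Hgfac, a protease related to factor XII, fell by 0.45 and Vkorc1l1 and Vkorc1, reductases that recycle vitamin K, by 0.42 and 0.35. Ggcx, the carboxylase that uses vitamin K to modify the clotting factors, gave 0.08 and was not called. The calls were lost for Hgfac without unstimulated replicate 1 (-0.39) or replicate 2 of the 2 day group (-0.41), for Vkorc1l1 without the latter (-0.34) and for Vkorc1 without replicate 1 of either group (-0.29 and -0.25). Background correction also ended all 3 of these calls (adjusted p = 0.124 to 0.233 by limma). Between 2 hours and 2 days, Pros1, the protein S gene, was higher (0.46) and Plaur, the urokinase receptor gene, lower (-0.56), neither called against unstimulated cells. At 2 hours the protease gene Hpn was higher (0.40), a call lost without any 1 of the 4 arrays compared (0.34 to 0.47), and 0 were lower.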

How the data were processed

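Probe intensities of 6 arrays were used as the authors deposited them, in 1 table of 45281 probes on a linear scale. Over all arrays the values ran from 96.5 to 47615, and the array medians lay between 143.16 and 143.22, as close as after normalization between arrays. Which software made the values was not given in the sources used here. Probes were named by the platform's table (34885 with 1 symbol, 18 with several, 10378 not listed), with symbols updated by entrez identifier through RefSeq (GRCm38.p6) for 34807. Values were converted to log2. Probes were kept if on 2 or more arrays they read above the 50th percentile of the array in question, and a gene was represented by its passing probe with the highest mean. The 3 groups were fitted together by limma 3.58.1 (R 4.3.3; residual degrees of freedom 3, prior 21.22) over 13438 genes, and again over 21425 probes, with Benjamini-Hochberg adjustment over each and a threshold of 0.05. The procedure was tested on simulated data. By rule, every tested gene of the list is named, and of the other genes up to 4 per list and comparison with the largest change among those called; the remaining other genes, and markers beyond the defining ones, were named after their values were seen. Genes and lists were chosen with earlier results of these data known. Alternatives were median centring, cyclic loess, normexp (offset 16), no filter, a 70th percentile filter, the mean of probes, a trended variance, the compared groups alone, a replicate block and leaving out each array. The HNF1 and HNF4 motifs were added after the intensities were seen. Protein sequences were not used here.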

Additional observations from a re-analysis of the deposited data

Results flagged for a closer look

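The 15 genes below differed in level between 2 days and 2 hours of TNFα, by the direct test of both times (limma, adjusted p under 0.05). Values are the log2 change at 2 days minus that at 2 hours, and time in culture cannot be told apart from the longer exposure. The clotting genes were F10 (-1.55), F12 (-1.17), F13b (-0.91), Fgg (-0.76), F9 (-0.70), Fga (-0.59) and Proc (-0.35). The complement genes with a lower value at 2 days were C6 (-0.90), C8b (-0.82), C8g (-0.57), Masp2 (-0.43) and Cfi (-0.33), and those with a higher one were Masp1 (0.74), C2 (0.47) and Mbl2 (0.36). For Masp1 the RefSeq-annotated probe gave -1.15 in the same comparison. The calls of C2, C8g, Fga, Cfi, Mbl2 and Proc were each lost without at least 1 of the 4 arrays compared. With 2 arrays a group, no array could be tested as an outlier.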

How the results depend on the processing

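Under normexp, complement genes higher and lower were 0 and 1 at 2 hours, 1 and 1 at 2 days, and 1 and 2 between the times, and 4 clotting genes were lower at 2 days. Over all 13438 genes, normexp called 81 higher and 14 lower at 2 hours, 349 and 306 at 2 days, and 413 and 397 between the times. F9 (adjusted p = 0.0507 by limma), F13b (0.0546) and C8b (0.0708) then lay just past the threshold. Cfb was not called (0 complement genes higher at 2 hours) with no filter, with the mean of probes or with a trended variance. The trended variance gave 2 complement genes lower at 2 hours. The mean of probes gave 0 lower at 2 hours and 1 higher at 2 days, and turned Masp1 from 0.74 to -0.091 between the times. Over all genes, those settings called, in that order, 226, 171 and 231 higher and 138, 79 and 124 lower at 2 hours. By probe, 8 of 25 complement and 13 of 27 clotting probes were lower at 2 days, where 5% of all probes were. Between the times 10 and 13 were lower, and the share over all probes was not computed for that comparison. Leaving out each array gave 0 to 1 complement genes higher and 0 to 1 clotting genes lower at 2 hours; 1 to 2 complement genes higher, 3 to 5 lower 0 to 1 clotting genes higher and 6 to 8 lower at 2 days; and 3 to 6 complement and 5 to 8 clotting genes lower between the times. The causes of these differences between settings were not tested. Replicate numbers are not said to pair cultures, and the correlations of their deviations were -0.15, -0.08 and 0.04. The replicate block gave 8 clotting and 5 complement genes lower at 2 days, where 771 of all 13438 genes were. It changed no member's call but that of Cfb between the times (adjusted p = 0.0371 by limma). Having 2 arrays a group and signal near background for F7, F5, C8a, Klkb1, Mbl1 and Fgb limit these results.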

Other observations

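Near copies of some genes had probes of their own. C1s2 had 4 probes, of which 3 lay between 119.8 and 152.2 on all arrays and the fourth read 214.8 and 208.2 without TNFα and 167.0 and 174.9 at 2 days. The brightest C4a probe read 4514 and 3956 without TNFα, 4637 and 4422 at 2 hours and 5240 and 4708 at 2 days. Kng2, a near copy of Kng1, read 748.9 and 681.6 without TNFα and 480.1 and 559.9 at 2 days on 1 probe, and 4852 and 4900 against 4271 and 4900 on the other. The C1rb probe stayed between 110.7 and 120.7.

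Markers of other cells moved as follows between the unstimulated and the 2 day arrays. The 8 endothelial markers with a passing probe summed to 1623 to 1755 and 1588 to 1629, and 1 of them, Stab2, was called lower (-0.37). The 5 stellate cell and fibroblast markers summed to 2150 to 2625 and 2798 to 3553, but went different ways: Acta2 was called higher (means of 1578 and 2507) and Reln lower (379.5 and 215.6), and Des, Col1a1 and Col1a2 lay near the array median and were not called. The 3 bile duct markers summed to 1193 to 1208 and 3180 to 3424, which was Sox9 (means of 847.2 and 2912); Krt7 (148.9 and 157.9) and Krt19 (204.1 and 232.7) were not called. The 3 platelet and megakaryocyte markers, a check for clotting genes carried in by platelets, summed to 439.8 to 449.0 and 423.3 to 487.1, and the 2 lymphocyte and neutrophil markers to 294.7 to 308.6 and 302.7 to 307.6.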
